A study of Mus musculus with 367 samples.

Results

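Matrix fibroblasts of day 12 wounds were split by their level of Acta2, and the cells with high Acta2 were compared with those with low Acta2 inside each capture. The cells were chosen by their measured values. A matrix cell had at least 1000 FPKM of Col1a1, under 100 FPKM of Rgs5, under 50 FPKM of Tyrobp, at most 15% of its summed FPKM on mitochondrial genes and at least 2000 genes above 0. FPKM is the number of sequenced fragments of a gene, scaled to transcript length and to the total fragments of the cell. Acta2-high cells had at least 100 FPKM of Acta2 and Acta2-low cells had under 10 FPKM. Of 367 cells in the series, 159 came from day 12 and 78 of these were matrix cells. They held 33 Acta2-high cells, 33 Acta2-low cells and 12 cells between the limits.

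All cells came from large excisional wounds on the back of Sm22-Cre;tdTomato mice of mixed background, aged 3 to 8 weeks, at post wounding day (PWD) 12, 15 or 21. In these mice the Tagln promoter drives Cre recombinase (SM22 is an older name of the Tagln protein), so tdTomato labels any cell in which it was ever active. Viable cells with high tdTomato were sorted and captured singly in a C1 microfluidic chip, so every cell of both classes carried the reporter whatever its present Tagln level. Wounds of 2 to 3 animals per time point were pooled, no unwounded skin was analysed here, and nothing states that the 3 captures of day 12 (54, 65 and 40 cells) came from different mice. The p-values below therefore rest on the spread between captures, which may be technical, and in part on a variance shared across genes.

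Myofibroblasts are fibroblasts that build contractile actin bundles and pull a wound closed while they deposit collagen. Acta2 encodes the smooth muscle actin that is the usual marker of this state, and Tagln, calponins, tropomyosins and myosin light chains make up the rest of the contractile apparatus. Many of these genes are switched on through serum response factor, SRF, which binds the CArG box and is helped by actin-sensing MRTF coactivators.

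The promoter of Acta2 is shown with 4 promoters of contractile and actin genes that were picked because they hold a CArG box. A CArG box is 2 C, then 6 bases that are each A or T, then 2 G, and reads the same kind of pattern on both strands. Capitals mark boxes, including those in which 1 of the 6 inner bases is G or C. Only bases before the RefSeq start site were searched (250 bases, GRCm38.p6), and each sequence runs 5′ to 3′ on the strand of its gene. The whole window is given for Acta2 and the stretch around the boxes for the others.
Acta2 (chr19:34255374-34255623, minus strand): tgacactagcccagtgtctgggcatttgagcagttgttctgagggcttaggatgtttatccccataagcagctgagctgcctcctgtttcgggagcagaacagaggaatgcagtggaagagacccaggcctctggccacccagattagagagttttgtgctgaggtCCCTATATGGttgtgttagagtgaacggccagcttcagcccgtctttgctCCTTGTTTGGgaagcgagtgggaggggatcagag
Myl9 (chr2:156775273-156775404, plus strand): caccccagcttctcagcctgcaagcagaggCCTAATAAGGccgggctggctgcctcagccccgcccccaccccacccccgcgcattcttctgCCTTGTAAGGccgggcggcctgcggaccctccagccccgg
Cnn2 (chr10:79988514-79988583, plus strand): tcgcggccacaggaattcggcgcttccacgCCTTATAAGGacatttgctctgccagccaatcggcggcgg
Vcl (chr14:20929151-20929200, plus strand): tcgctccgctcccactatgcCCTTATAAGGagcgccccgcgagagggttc
Actg1 (chr11:120348546-120348615, minus strand): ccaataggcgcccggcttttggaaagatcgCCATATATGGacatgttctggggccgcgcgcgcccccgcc
Acta2 held no exact box in this window, but it held 2 boxes with 1 other inner base, which began 84 and 34 bases before the start. Exact boxes began 161 bases before the start of Myl9, 56 before that of Cnn2, 227 before that of Vcl and 90 before that of Actg1. Tpm1, Lims1 and Itga5 held no exact box in this window. Of 27025 genes with a promoter sequence, 439 (1.62%) held an exact box. The smooth muscle contractile list had 2 of 15 such genes, the actin cytoskeleton and focal adhesion list 4 of 33 and the list of SRF, MRTF and YAP regulators and targets 3 of 14. The small leucine-rich proteoglycan list had 0 of 9 and the lower dermis and fascia fibroblast list 0 of 11. The growth factor and receptor list, described below, had 2 of 17. The cell cycle list had 1 of 23, the immediate early list 2 of 17 and the list of folding and secretion 0 of 26. Of the 12 leading higher genes 8 had a promoter sequence, of which 0 held an exact box. Tagln and Actb, both among the 12, had no promoter sequence here and were not searched. These matches describe letters and are not measured binding sites.

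Acta2 (chr19:34241090-34255590, minus strand, GRCm38) ranged from 0 to 2390 FPKM among matrix cells of day 12. Among the Acta2-high cells its level ran from 204 to 2267 FPKM with a median of 612 in capture 1 (15 cells), from 110 to 2390 with a median of 1039 in capture 2 (14 cells), and from 108 to 928 with a median of 447 in capture 3 (4 cells). Among the 13, 10 and 10 Acta2-low cells of the same captures the highest levels were 6.86, 1.75 and 3.45 FPKM, and Acta2 was listed at 0 in 9, 6 and 7 of them. Next to the limits, the values were 99.4 and 108 FPKM on either side of 100, and 6.86 and 18.99 FPKM on either side of 10. Acta2 was thus at 0 in most of the Acta2-low cells, and the high class spanned a wide range above its limit. Col1a1, which encodes the main chain of type I collagen and was also used by the rule, had lower means in the Acta2-high cells of every capture, 6323, 4357 and 4851 FPKM, against 9395, 4599 and 5916 FPKM in the Acta2-low cells. Its Spearman's rho with Acta2 over matrix cells was -0.44, -0.24 and -0.28 in captures 1, 2 and 3. These values chose the cells and carry no test.

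**Figure D1:**
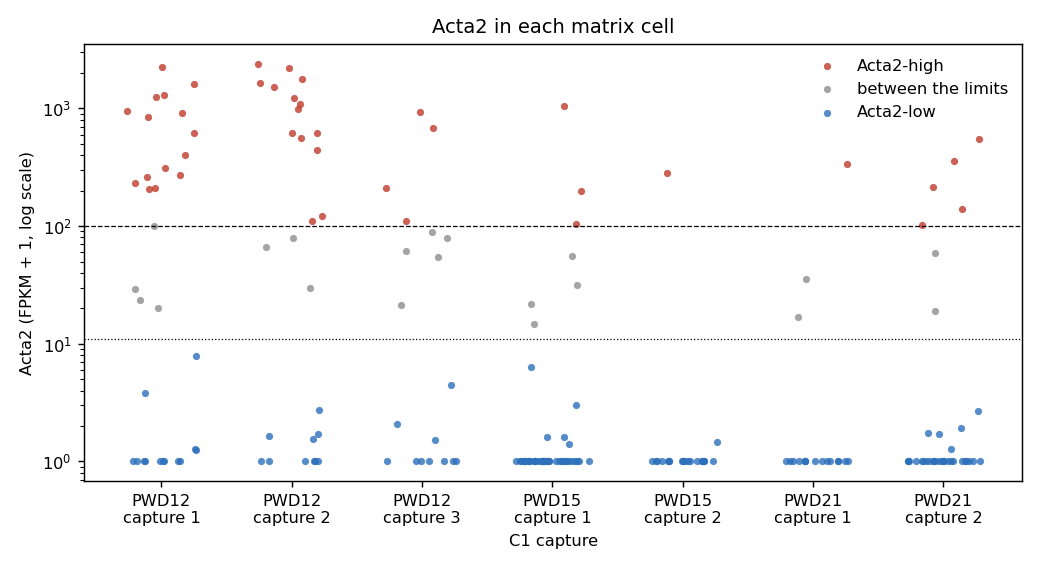
Acta2 level (FPKM + 1, log scale) in each matrix cell of the 7 captures. Each point is a cell, colours give the Acta2 class, and the dashed and dotted lines mark the limits of 100 and 10 FPKM. Acta2-high cells make up 33 of the 78 day 12 matrix cells, and most Acta2-low cells are listed at 0.

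The label of matrix fibroblasts was checked against markers that the rule did not use. Of 14 fibroblast identity genes, among them Pdgfra, Col1a2, Dcn, Lum and Thy1, a median of 11 was above 0 in both classes. Their summed level had a median of 12409 FPKM in Acta2-high and 17024 FPKM in Acta2-low cells. The mean of this sum was lower in the Acta2-high cells of captures 1 and 2 and higher in those of capture 3. Col1a2 was above 0 in all 66 cells, and Pdgfra, the receptor for platelet-derived growth factor, in 28 of 33 cells of each class. Smooth muscle genes were mixed. Myh11, the smooth muscle myosin heavy chain, was above 0 in 1 Acta2-high and 3 Acta2-low cells and never passed 1.86 FPKM, Des (desmin) was above 0 in 2 Acta2-high cells, with a highest level of 67.55 FPKM, and in no Acta2-low cell, and Myocd, the smooth muscle partner of SRF, was listed at 0 in all cells of both classes. Cnn1, Lmod1 and Actg2, also known from smooth muscle, reached 322, 202 and 650 FPKM in Acta2-high cells and are described with the contractile list.

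Some cells carried RNA of other cell types. The summed level of 15 myeloid genes other than Tyrobp, Lyz2, Cd74 and Ptprc among them, ranged from 0 to 5338 FPKM in Acta2-high cells, from 0 to 312 FPKM in cells between the limits and from 0 to 6.92 FPKM in Acta2-low cells. It was at least 100 FPKM in 3 Acta2-high cells, 1 in each capture, and in no Acta2-low cell. Its median was 0 in both classes, and 9 of the 15 genes were at 0 in every Acta2-low cell. The summed level of 16 mural genes ran from 0.77 to 906 FPKM in Acta2-high cells and from 2.56 to 676 FPKM in Acta2-low cells. It was at least 100 FPKM in 13 of 33 Acta2-high cells, 7 of 12 cells between the limits and 9 of 33 Acta2-low cells. Endothelial sums stayed at or below 14.3 FPKM, and lymphocyte sums at or below 47.8 FPKM. Schwann cell and melanocyte genes reached 987 FPKM and keratinocyte genes 168 FPKM, both in Acta2-low cells, where each sum was at least 100 FPKM in 2 cells. Library depth differed as well: the median estimate of sequenced fragments per cell was 2010000 in Acta2-high and 1770000 in Acta2-low cells of capture 1, 1780000 and 1160000 in capture 2, and 1520000 and 1190000 in capture 3. Over the matrix cells of captures 1, 2 and 3, Spearman's rho between this estimate and Acta2 was 0.05, -0.12 and 0.52. The median number of genes above 0 was 6529 in Acta2-high and 6083 in Acta2-low cells. The part of depth and of these other RNAs in the differences below was not tested, beyond the values given below without cells that carried them.

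To compare the classes, the mean FPKM of each class was taken in each capture, and the difference of log2(mean + 1) between Acta2-high and Acta2-low cells was tested over the 3 captures by limma, blocking on capture. On this scale the change of genes with low levels is understated. Each ± given with a log2 difference is the SE from limma, which draws in part on the variance of other genes of similar level. Acta2, Col1a1, Rgs5 and Tyrobp were left out of the test because the rule used them. Of 12826 genes tested, 0 were called at a Benjamini-Hochberg adjusted p below 0.05 (0% in either direction), and the smallest adjusted p was 0.900. At an unadjusted p below 0.05 there were 611 genes, 2.45% of those tested being higher and 2.32% lower in Acta2-high cells. A gene was higher in all 3 captures in 11.1% of cases and lower in all 3 in 10.9%. The median difference over all genes was -0.01. No single gene was thus called different between the classes at day 12, and the values of named genes below describe these 3 captures. Taking the mean over cells of log2(FPKM + 1), in place of the log of the mean, called 1 gene, Tagln (difference 4.11, limma adjusted p = 0.041, higher in 3 of 3 captures).

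Tagln (chr9:45929619-45936058, minus strand), which encodes the actin-binding protein transgelin and lends its promoter to the Cre line, had the smallest unadjusted p of the contractile list. Its mean level was 632, 608 and 447 FPKM in the Acta2-high cells of captures 1, 2 and 3 and 150, 76.8 and 197 FPKM in the Acta2-low cells. The 3 means of the high class all lay above the 3 of the low class. The log2 difference was 2.07 ± 0.43 (SE, n = 3 captures), a 4.20-fold difference. In single cells, Tagln was at least 100 FPKM in 26 of 33 Acta2-high cells, 4 of 12 cells between the limits and 13 of 33 Acta2-low cells. It was listed at 0 in 2 Acta2-high and 12 Acta2-low cells. At these limits the 2 genes did not pick the same cells. Tagln was at 100 FPKM or more in 13 cells with almost no Acta2, and it was lower in 7 cells with high Acta2. Whether transcripts were missed in single cells listed at or near 0 was not tested. Over all matrix cells of a capture, Spearman's rho between Acta2 and Tagln was 0.61 in capture 1 (32 cells), 0.73 in capture 2 (27 cells) and 0.43 in capture 3 (19 cells). These cells share a chip and a library preparation, and the coefficients are descriptions.

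**Figure D2:**
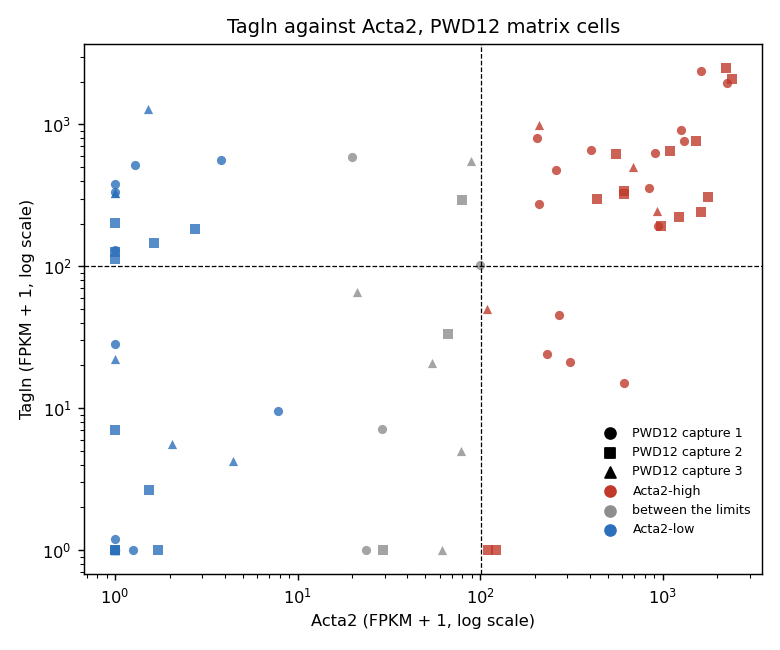
Tagln against Acta2 (both FPKM + 1, log scales) in the 78 matrix cells of day 12. Symbols give the capture, colours the Acta2 class, and dashed lines mark 100 FPKM. The upper left holds the 13 Acta2-low cells with Tagln of at least 100 FPKM, with 4 cells between the limits, and the upper right holds 26 Acta2-high cells.

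The contractile list was shifted toward the Acta2-high cells. Of its 20 genes, Acta2 was used by the rule, Myh11, Synpo2 and Myocd were too low to be tested, and 16 were tested. None passed the adjusted threshold, while 7 of the 16 were higher in all 3 captures and 0 lower in all 3, beside 11.1% and 10.9% of all genes. Cnn1 and Des were at 0 in every Acta2-low cell, and Lmod1 stayed at or below 0.38 FPKM there. These genes passed the filter on low values only through the Acta2-high cells, so their direction was set in advance. They count toward the 16 and the list median, and Lmod1 toward the 7. The median difference of the list was 1.06, beside -0.01 for all genes, and it was 0.83, 1.60 and 0.15 in captures 1, 2 and 3. Capture 3, with 4 Acta2-high cells, had the smallest shift. With a pseudocount of 10 the median of the list was 0.59. Without the 3 Acta2-high and 4 Acta2-low cells in which a whole marker list other than the mural one summed to at least 100 FPKM, the list median was 1.14 and the Tagln difference 2.08. With the mural list used as well, captures 1 and 2 kept 8 and 8 Acta2-high and 8 and 7 Acta2-low cells, capture 3 kept too few to be used, and the values were 0.89 and 2.15.

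Myl9, a myosin regulatory light chain, had means of 402, 516 and 242 FPKM in the Acta2-high cells and 165, 131 and 141 FPKM in the Acta2-low cells, a log2 difference of 1.34 ± 0.40 (SE). The 3 means of the high class lay above the 3 of the low class. Single cells overlapped, with 0 to 1542 FPKM in Acta2-high and 0 to 982 FPKM in Acta2-low cells. Tpm1, a tropomyosin that lies along actin filaments, had means of 449, 796 and 314 FPKM against 276, 219 and 229 FPKM (1.00 ± 0.38). Cnn2, a calponin, had means of 339, 326 and 234 FPKM against 185, 146 and 79.02 FPKM (1.19 ± 0.40). For both genes the 3 high means also lay above the 3 low means. Myl9 was above 0 in 30 Acta2-high and 22 Acta2-low cells, whereas Tpm1 was above 0 in every cell, so for Tpm1 the difference was one of level.

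Cnn1, the calponin typical of smooth muscle, was above 0 in 7 Acta2-high cells and in none of the 33 Acta2-low cells, but those 7 cells came from captures 1 and 2, and its mean in capture 3 was 0 in both classes. Lmod1, which nucleates actin in smooth muscle, reached 202 FPKM among the Acta2-high cells and 0.38 FPKM among the Acta2-low cells, although it was above 0 in only 7 and 4 of them. Actg2, the enteric smooth muscle actin, was above 0 in 12 Acta2-high and 6 Acta2-low cells, with means of 48.3, 147 and 43.2 FPKM against 15.4, 21.3 and 0 FPKM. Its coding sequence is close to that of Acta2, as are those of Acta1, Actb and Actg1, and reads that fit several actins are divided by estimation, so the actin values are uncertain.

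Among the other contractile genes, Tagln2 was higher in all 3 captures, by 0.76, 0.22 and 0.15, and the rest had no shared direction. Cald1, caldesmon, had means of 300, 496 and 248 FPKM in Acta2-high and 447, 298 and 201 FPKM in Acta2-low cells (0.15 ± 0.38). Mylk, the kinase that activates myosin light chains, differed by 0.25 ± 0.75. Tpm2 had 254 and 329 FPKM against 76.7 and 77.7 FPKM in captures 1 and 2, but 238 against 318 FPKM in capture 3.

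**Figure D3:**
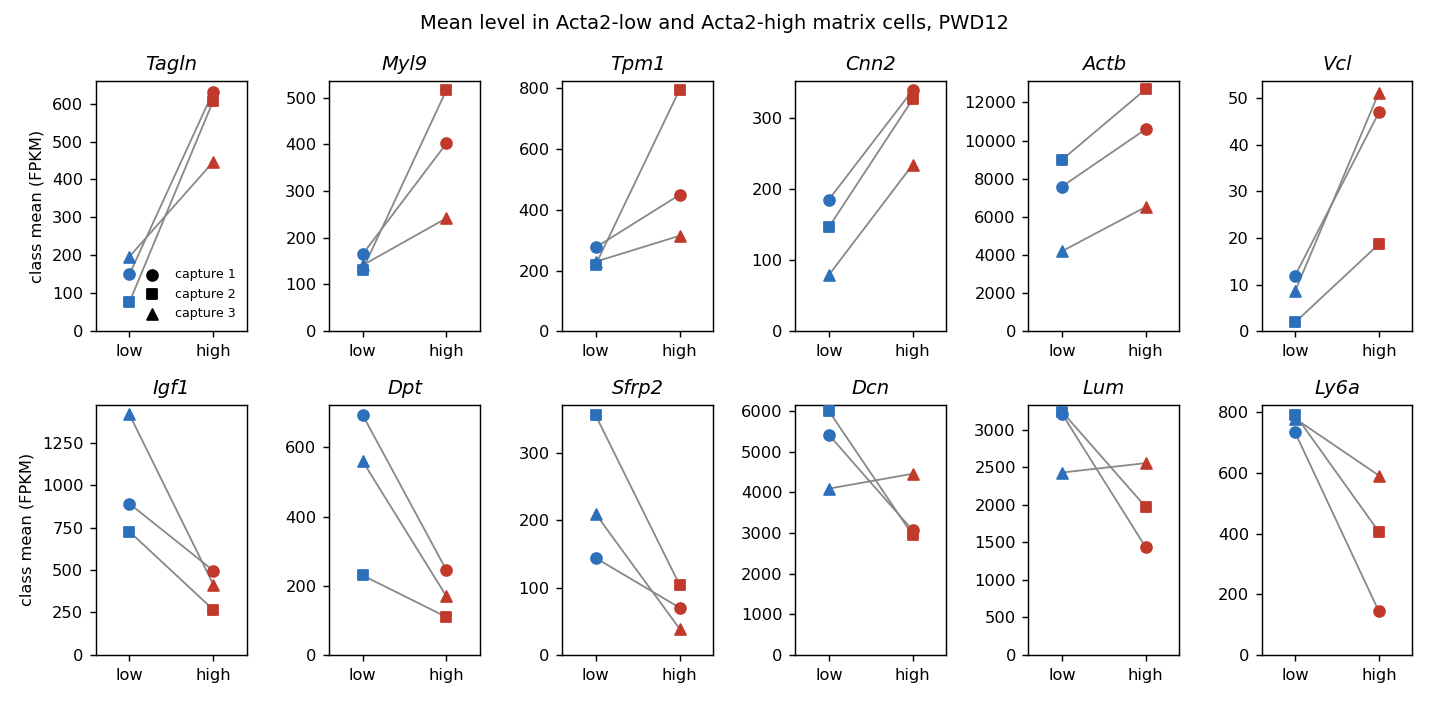
Mean FPKM of the Acta2-low (blue) and Acta2-high (red) cells of each day 12 capture for 12 genes, with a line joining the classes of a capture. Axes start at 0, and symbols give the capture. The upper row holds contractile and actin genes, with Tagln means of 150, 76.8 and 197 FPKM in low and 632, 608 and 447 FPKM in high cells, and the lower row holds genes with lower means in Acta2-high cells in at least 2 captures.

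Genes of the general actin cytoskeleton and of focal adhesions, which anchor actin to integrins at the cell surface, showed the most even shift. Of 38 tested, 17 were higher in all 3 captures and 0 lower in all 3, beside 11.1% and 10.9% of all genes. By limma 7 were higher at an unadjusted p below 0.05, beside 2.45% of all genes, and none passed the adjusted threshold. The list median was 0.45, with 0.54, 0.50 and 0.53 in the 3 captures. Actb, cytoplasmic beta actin, had means of 10598, 12697 and 6521 FPKM in the Acta2-high and 7589, 8988 and 4194 FPKM in the Acta2-low cells. Its difference of 0.54 ± 0.09 (SE) had the smallest unadjusted p of all genes that kept 1 higher direction, and it was 0.48, 0.50 and 0.64 in the 3 captures. Actg1, the other cytoplasmic actin, differed by 0.48 ± 0.17, and Tmsb4x, which binds actin monomers, by 0.59 ± 0.20.

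Adhesion proteins had larger differences at lower levels. Vcl, vinculin, had means of 46.96, 18.7 and 51.2 FPKM in Acta2-high and 11.9, 1.90 and 8.59 FPKM in Acta2-low cells (2.37 ± 0.82). Lims1, the PINCH adaptor of the integrin-linked kinase complex, had 151, 81.2 and 74.2 FPKM against 28.6, 41.2 and 12.5 FPKM (1.93 ± 0.65). Itga5, the alpha chain of the fibronectin receptor, had 27.5, 32.2 and 81.03 FPKM against 13.4, 6.99 and 0.274 FPKM (3.02 ± 1.09). The Acta2-high means of all 3 genes lay above all of their Acta2-low means. Their numbers of cells above 0 were 23 and 21 for Vcl, 32 and 24 for Lims1, and 25 and 11 for Itga5, in Acta2-high and Acta2-low cells. Fn1, fibronectin itself, differed by 0.38 ± 0.29.

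Among 16 tested SRF, MRTF and YAP regulators and targets, 3 were higher in all captures and 0 lower, beside 11.1% and 10.9% of all genes. The list median was 0.87. Fhl2, a LIM protein that binds SRF, had means of 41.7, 33.96 and 114 FPKM in Acta2-high and 11.2, 17.8 and 12.6 FPKM in Acta2-low cells (1.93 ± 0.77). Srf itself had means of 0.468, 2.96 and 0.983 FPKM against 2.41, 7.61 and 0 FPKM, although it was above 0 in 12 Acta2-high and 4 Acta2-low cells. The secreted YAP target Ccn1 differed by 0.82 ± 0.47.

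Collagen genes had no shared direction. The 8 fibrillar collagen genes tested had a median difference of -0.10, with 0 higher in all captures and 1 lower. Col1a2 had means of 4970, 3611 and 6421 FPKM in Acta2-high and 7006, 3747 and 5960 FPKM in Acta2-low cells (-0.15 ± 0.14), and Col3a1 5932, 4225 and 7468 FPKM against 8739, 7280 and 6028 FPKM (-0.34 ± 0.19). Col1a2 and Col3a1 were lower in captures 1 and 2 and higher in capture 3. Of 17 collagen processing genes 4 were higher and 4 lower in all captures, and the median was -0.16. Of 13 other collagens 2 were higher in all captures and 0 lower, with a median of 0.08. Among them, Col4a1 had means of 86.8, 126 and 11.3 FPKM in Acta2-high and 1.09, 3.40 and 28.1 FPKM in Acta2-low cells (3.00 ± 1.28). Its medians over cells were 0.77 and 0.24 FPKM. Col4a2 was higher in all captures (2.01 ± 0.93). Postn, periostin, differed by -0.16 ± 0.13, and Cthrc1 by 0.37 ± 0.24. Tnn, tenascin N, was above 0 in 29 Acta2-high and 16 Acta2-low cells, and its means were 111, 107 and 29.02 FPKM against 29.8, 52.1 and 9.21 FPKM (1.48 ± 0.64). Over the 25 matricellular and elastic fibre genes, 3 were higher and 2 lower in all captures. In this list Mfap4 differed by -1.08 ± 0.41. Ccn5, above 0 in 4 Acta2-high cells and 1 Acta2-low cell, differed by 3.57 ± 1.34. Kdelr2, which returns proteins to the endoplasmic reticulum, differed by 0.39 ± 0.16. Of 32 genes of folding and secretion 6 were higher and 0 lower in all captures, with a median of 0.26. For the counts of all these lists, the shares of all genes were 11.1% higher and 10.9% lower.

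Small leucine-rich proteoglycans, which coat and space collagen fibrils, had a list median of -0.59 over 10 genes, and it was -1.12, 0.05 and -1.22 in captures 1, 2 and 3. Of the 10 genes 1 was lower in all captures, near the 10.9% of all genes. Dcn, decorin, had means of 3062, 2945 and 4453 FPKM in Acta2-high and 5412, 5998 and 4088 FPKM in Acta2-low cells (-0.57 ± 0.20). Lum, lumican, had 1434, 1970 and 2556 FPKM against 3215, 3244 and 2431 FPKM (-0.60 ± 0.23). For both genes the high mean lay below the low mean in captures 1 and 2, and capture 3 had a small difference of the other sign. Only Prelp was lower in all 3 captures, and it was above 0 in 2 Acta2-high and 10 Acta2-low cells.

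Igf1, insulin-like growth factor 1, was the leading lower gene that was above 0 in the most cells. Its means were 496, 266 and 414 FPKM in Acta2-high and 890, 726 and 1416 FPKM in Acta2-low cells, a log2 difference of -1.35 ± 0.29 (SE). The 3 means of the high class lay below the 3 of the low class. Single cells overlapped, with 0 to 3583 FPKM in Acta2-high and 0.16 to 2450 FPKM in Acta2-low cells. The median over cells was 163 FPKM in Acta2-high, 579 FPKM in cells between the limits and 866 FPKM in Acta2-low cells, and Igf1 was above 0 in 31 and 33 cells of the high and low classes, so the difference was one of level. Spearman's rho between Acta2 and Igf1 over matrix cells was -0.50, -0.50 and -0.63 in captures 1, 2 and 3, as a description.

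In the growth factor and receptor list, 9 of 20 tested genes were lower in all 3 captures and 0 higher in all 3. The shares of all genes were 10.9% and 11.1%, and the list median was -0.75. Igfbp2, a binding protein for these factors, was above 0 in 3 Acta2-high and 13 Acta2-low cells. Igfbp5 had means of 32.3, 38.9 and 62.9 FPKM in Acta2-high and 210, 89.7 and 96.8 FPKM in Acta2-low cells (-1.49 ± 0.61). H19, an imprinted non-coding RNA, had means of 98.5, 13.8 and 21.8 FPKM against 280, 19.2 and 209 FPKM (-1.72 ± 0.69).

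Genes of lower dermis and fascia fibroblasts, the deep fibroblasts of skin, had the lowest median of the lists other than markers of other cell types, -1.08 over 13 genes, and it was -2.35, 0.31 and -0.51 in captures 1, 2 and 3. Of these 13 genes 4 were lower in all captures and 0 higher, beside 10.9% and 11.1% of all genes. Dpt, dermatopontin, had means of 245, 109 and 169 FPKM in Acta2-high and 694, 230 and 560 FPKM in Acta2-low cells (-1.43 ± 0.36), and it was above 0 in 26 and 32 cells. Ly6a, the stem cell antigen Sca-1, had 143, 406 and 592 FPKM against 734, 792 and 780 FPKM (-1.24 ± 0.39). Apod, apolipoprotein D, differed by -1.57 ± 0.57 and Mest by -2.84 ± 1.11. The Ly6a means of the high class all lay below those of the low class, whereas the Dpt means of capture 1 in high cells and of capture 2 in low cells overlapped. Col14a1, a collagen of fibril surfaces, was above 0 in 13 Acta2-high and 26 Acta2-low cells, although its means were 25.2, 49.96 and 23.1 FPKM against 118, 40.1 and 86.6 FPKM.

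Secreted signals showed both directions. Sfrp2, a Wnt modulator, was above 0 in 25 Acta2-high and all 33 Acta2-low cells, with means of 70.2, 104 and 38.95 FPKM against 144, 356 and 209 FPKM (-1.73 ± 0.50). The high means lay below the low means. Rspo3, which amplifies Wnt signals, was above 0 in 3 and 11 cells, and over the 14 Wnt genes tested 1 was higher and 2 lower in all captures. Cxcl12, the ligand of Cxcr4, had means of 0.318, 24.7 and 13.99 FPKM in Acta2-high and 28.5, 177 and 71.1 FPKM in Acta2-low cells (-3.18 ± 0.80). Inhba, a subunit of activin A, was above 0 in 21 Acta2-high and 8 Acta2-low cells, with means of 65.3, 67.65 and 82.8 FPKM against 28.3, 10.98 and 37.7 FPKM (1.60 ± 0.67). Ltbp3, which holds latent TGF-beta in the matrix, differed by -2.11 ± 0.92. Over the 20 TGF-beta pathway genes tested the median was -0.01, and 1 was higher and 4 lower in all captures. For the Wnt and TGF-beta counts, the shares of all genes were 11.1% higher and 10.9% lower.

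Enzymes that cut matrix were mixed. Mmp13, a collagenase, was above 0 in 4 Acta2-high and 10 Acta2-low cells, with means of 0, 9.39 and 0 FPKM against 21.7, 72.1 and 11.2 FPKM (-3.64 ± 0.97). Mmp11 differed by -2.24 ± 0.68, but its means in capture 1 were 578 and 555 FPKM. Timp3, an inhibitor of these enzymes, was above 0 in 12 Acta2-high and 20 Acta2-low cells (-3.62 ± 1.22). Of 20 genes of this list, 2 were higher and 4 lower in all captures, beside 11.1% and 10.9% of all genes.

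Cell cycle genes had the highest median of the lists other than markers of other cell types, 1.18 over 29 genes. The median was 1.81 and 0.93 in captures 1 and 2 but 0 in capture 3. Of the 29 genes 10 were higher and 1 lower in all captures, beside 11.1% and 10.9% of all genes. Stmn1, which regulates microtubules, had means of 257, 335 and 84.9 FPKM in Acta2-high and 14.02, 120 and 40.7 FPKM in Acta2-low cells (2.21 ± 0.68). Cdk1, the mitotic kinase, was above 0 in 10 Acta2-high and 6 Acta2-low cells. Top2a was above 0 in 16 and 14 cells and Mki67, the usual proliferation antigen, in 7 and 3 cells. The summed level of the list had a median of 767 FPKM in Acta2-high and 469 FPKM in Acta2-low cells, with highest values of 9893 and 10861 FPKM, so a cell of each class was high in these genes.

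The remaining lists had smaller or uneven shifts. Over 8 retinoid genes 1 was higher in all captures, beside 11.1% of all genes. It was Stra6, the retinol uptake receptor, which was above 0 in 18 Acta2-high and 9 Acta2-low cells (2.66 ± 1.03). Crabp1, a retinoic acid carrier, had means of 1937, 812 and 1580 FPKM against 663, 1034 and 813 FPKM. Over 27 mesenchymal transcription factors the median was 0.02, and Sox11 was above 0 in 24 Acta2-high and 12 Acta2-low cells (2.06 ± 0.87). Ndrg1, a hypoxia-inducible gene, differed by -3.35 ± 1.00, while the glycolysis and hypoxia list had a median of 0.39. Over 6 adipogenic genes tested the median was 0.61, and Lpl, lipoprotein lipase, differed by -1.74 ± 0.67. Fabp4 differed by 2.56 ± 1.23, was above 0 in 7 Acta2-high and 3 Acta2-low cells and had the other sign in capture 3. The acute phase and chemokine list had a median of -0.42 over 19 genes and the immediate early list 0.03 over 20. Myc was above 0 in 10 Acta2-high and 4 Acta2-low cells (2.86 ± 1.04).

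**Figure D4:**
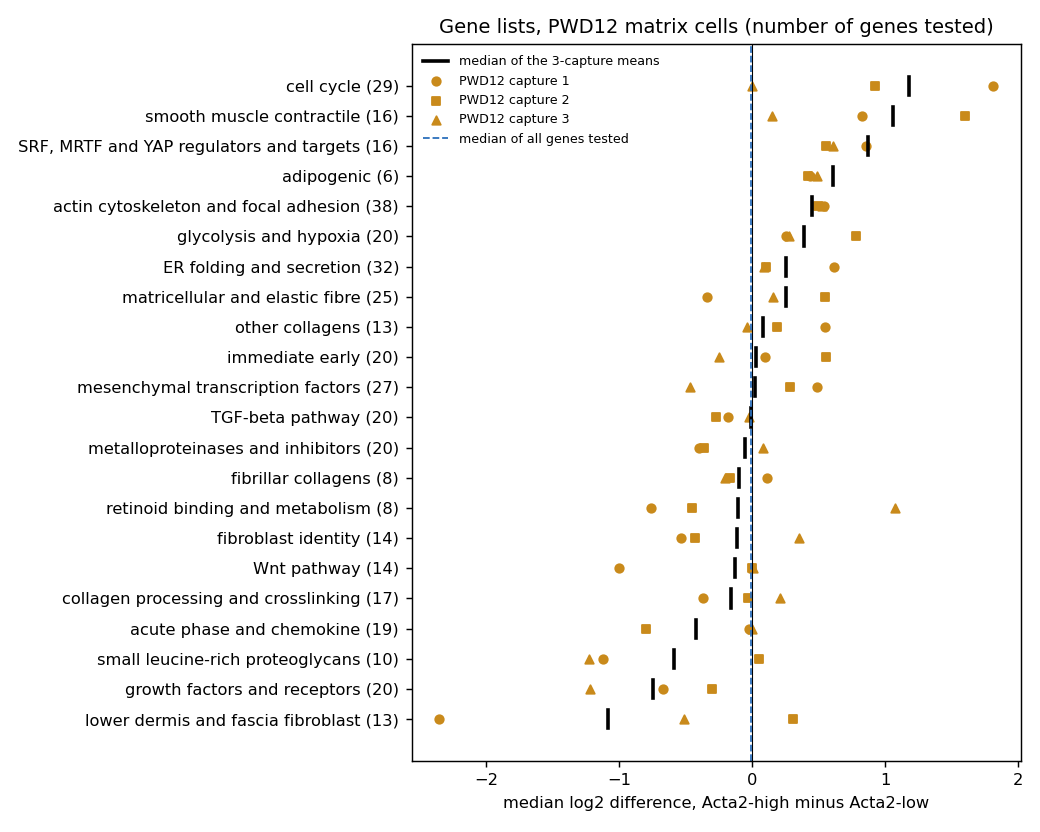
Median log2 difference (Acta2-high minus Acta2-low) of each gene list at day 12. Symbols give the median in each capture, black bars the median of the gene means over the 3 captures, and the dashed line the median of all genes tested, -0.01. The contractile list has a median of 1.06 and the lower dermis and fascia list -1.08, and the 3 captures of the actin list lie between 0.50 and 0.54.

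By the smallest unadjusted p among genes with 1 direction in every capture, the 12 leading higher genes were Actb, Crip1, Tagln, Rtel1, Rab20, Tgif1, Hdac3, Syce2, Sdr39u1, Cdk1, Rhod and Slpi. The 12 leading lower genes were C1qtnf5, Gm48562, Gm28911, Dohh, Adam33, Igf1, Map6, Cln3, Fbxo9, Tmem220, Grina and Fmo1. All had a limma adjusted p of 0.900. Crip1, a small LIM protein, had means of 1508, 2393 and 1336 FPKM in Acta2-high and 585, 1006 and 779 FPKM in Acta2-low cells (1.13 ± 0.22), and it was above 0 in 32 and 30 cells. Fmo1, a flavin monooxygenase, had 119, 13.4 and 100.4 FPKM against 358, 89.1 and 359 FPKM (-2.02 ± 0.50). Of the 12 higher genes 9 had a median of 0 in the Acta2-high cells, and of the 12 lower genes 9 had a median of 0 in the Acta2-low cells, so their means rested on few cells. Rab20, for one, was above 0 in 4 Acta2-high cells and no Acta2-low cell, and Gm28911, a processed pseudogene that may share reads with its parent gene, was above 0 in 1 and 5 cells.

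Cells between the limits were few. In captures 1, 2 and 3 they had Tagln means of 173, 108 and 128 FPKM, Myl9 means of 347, 205 and 130 FPKM and Actb means of 10359, 8335 and 5446 FPKM. Their medians over cells lay between those of the outer classes for Tagln (26.03 FPKM, beside 337 in high and 6.05 in low), Myl9 (78.1, beside 428 and 30.5) and Tpm1 (321, beside 439 and 208), while for Dcn (4868, beside 2851 and 4473) and Mest (90.4, beside 0 and 23.4) they lay above both.

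By the same limits Acta2-high cells were scarcer among matrix cells of later wounds. They made up 46.9%, 51.9% and 21.1% of matrix cells in the day 12 captures, with exact (Clopper-Pearson) 95% intervals of 29.1% to 65.3%, 31.9% to 71.3% and 6.05% to 45.6%. In the 2 captures of PWD15 they were 6% (3 of 50 cells) and 4.55% (1 of 22), and in those of PWD21 5.56% (1 of 18) and 13.9% (5 of 36). The day 12 mean was 39.9% ± 16.5 (SD, n = 3) and the later mean 7.50% ± 4.30 (SD, n = 4). The intervals cover counting error only. These shares rest on the Acta2 limits of the rule and are given without a test.

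Of the later captures, capture 1 of PWD15 (3 high, 43 low) and capture 2 of PWD21 (5 high, 29 low) had at least 3 cells in both classes. The high means rested on so few cells that 3534 and 2497 of the 12222 genes tested were at 0 in every Acta2-high cell, against 358 and 653 in every Acta2-low cell, and the median difference over all genes was -0.79. Genes were higher in both captures in 11.4% of cases and lower in both in 41.9%. By limma 7 genes (0.0573%) passed the adjusted threshold and 1108 an unadjusted p below 0.05. Among the higher genes were Fstl1 (0.54 ± 0.07 SE, adjusted p = 3.2e-05) and Gpx3 (1.56 ± 0.31, 0.024). Sparc (-0.34 ± 0.04, 4.5e-07), Col3a1 (-0.43 ± 0.06, 2.3e-05), Cxcl1 (-6.84 ± 1.31, 0.019) and Fos (-4.37 ± 0.88, 0.027) were lower. These 2 captures leave 1 residual degree of freedom, so the SE and p-values of limma rest in part on other genes. In the PWD15 and the PWD21 capture, Fstl1 differed by 0.88 and 0.20, Gpx3 by 0.89 and 2.22 and Fos by -7.58 and -1.15. Sparc differed there by -0.41 and -0.27, Col3a1 by -0.44 and -0.43 and Cxcl1 by -8.15 and -5.53. At day 12 Sparc, Col3a1 and Fstl1 differed by -0.20 ± 0.15, -0.34 ± 0.19 and -0.10 ± 0.12.

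The contractile list was again above all genes in these later captures, with a median of 0.91 over 13 genes, 6 higher in both captures and 0 lower in both. Myl9 had means of 821 and 312 FPKM in Acta2-high and 71.1 and 50.9 FPKM in Acta2-low cells, and Tpm1 355 and 153 FPKM against 87.7 and 55.3 FPKM. Tagln split the captures, with 1056 against 148 FPKM at PWD15 and 196 against 255 FPKM at PWD21. Among the Acta2-low cells of these captures 12 of 43 and 14 of 29 had at least 100 FPKM of Tagln.

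Of 2590 genes that had 1 direction in the 3 day 12 captures and a later value, 1350 (52.1%) had the same sign of the later mean. Of the 12 leading higher genes 11 had a later value and 3 kept the sign of the mean, and of the 12 leading lower genes 11 had one and 9 kept it, where the median of all genes was -0.79. Named genes went both ways. Of genes higher in the 3 day 12 captures, Lims1 differed by -2.08 and -3.27 and Itga5 by -2.37 and -2.08. Fhl2 differed by -4.74 and -1.98 and Crip1 by -0.52 and -0.60. Others of these genes stayed higher, with Actb differing by 0.99 and 0.17 and Stmn1 by 1.31 and 2.29. Vcl, Tmsb4x and Inhba were likewise higher in both later captures. The actin cytoskeleton and focal adhesion list had a later median of 0.27 over 37 genes. Of these, 13 were higher in both later captures and 8 lower in both. Igf1 differed by 0.85 and 0.60, with means of 522 and 783 FPKM in Acta2-high and 289 and 518 FPKM in Acta2-low cells. Dpt kept a lower mean in the Acta2-high cells, 306 and 444 FPKM against 506 and 573 FPKM, as did Cxcl12. A test of the difference between day 12 and later captures called 0 of 13224 genes (0%) by limma, with a smallest adjusted p of 0.563 and 1042 genes at an unadjusted p below 0.05.

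**Figure D5:**
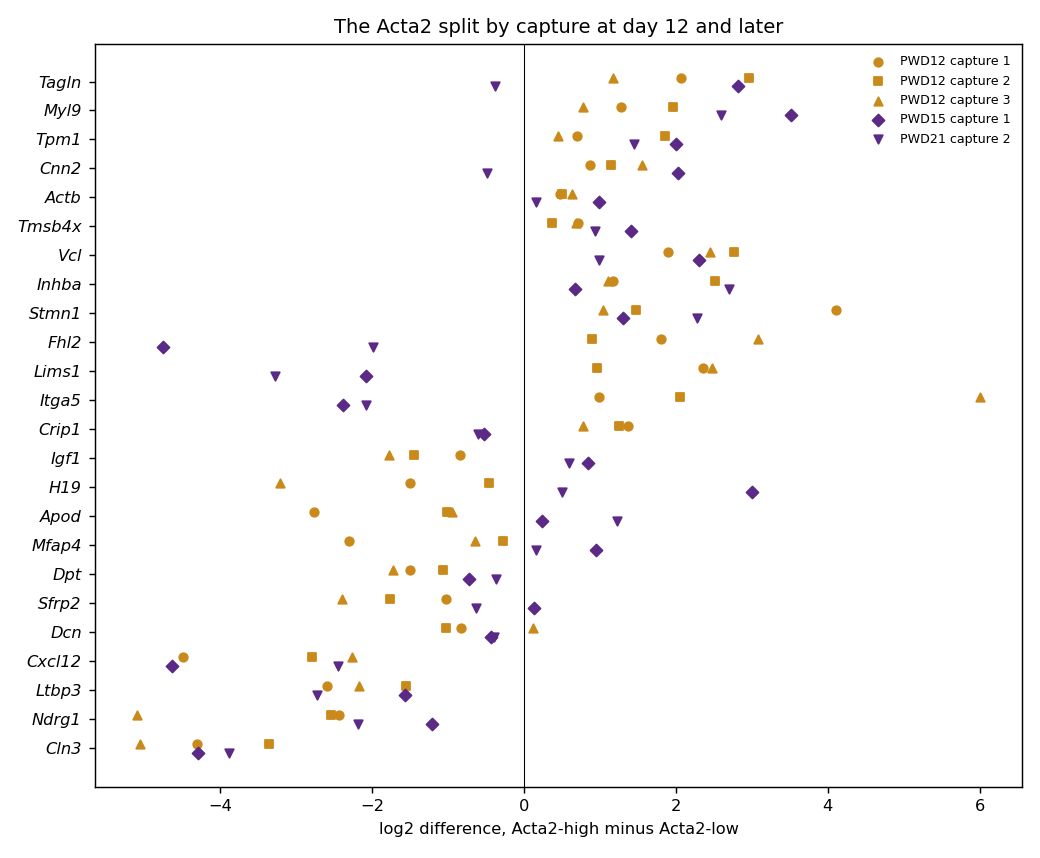
Log2 difference (Acta2-high minus Acta2-low) of 24 genes in the 3 day 12 captures (orange) and in the PWD15 and PWD21 captures with at least 3 cells in both classes (purple). Myl9 and Tpm1 are above 0 in all 5 captures, while Igf1, H19, Apod and Mfap4 lie below 0 at day 12 and above 0 later.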

How the data were processed

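Single-cell RNA was sequenced as full-length, paired-end libraries. The authors aligned reads to mm10 with Bowtie 1.0.0 and quantified them with RSEM on a GENCODE annotation, and the deposited values are FPKM per gene and cell, with no counts. Wells that held more than 1 cell were excluded by microscopy, according to the study's methods. FPKM of a cell is relative, so a gene can only be compared as a part of its cell's RNA. The labels of day 12 capture 3 give a description that names the matrix of capture 2, and its cells were assigned by their titles.

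The members and gene lists were chosen with earlier results of these data known. Gene symbols and positions were taken from GENCODE M21 on GRCm38 for 50376 of 50600 identifiers, and promoters from RefSeq (GRCm38.p6). Captures with at least 3 cells in both classes were used, and the test kept each gene averaging 1 FPKM or more. Means of FPKM over the cells of a class were log2 transformed with a pseudocount of 1 and compared with limma 3.58.1 (R 4.3.3, variance trend, capture as block), two-sided, with Benjamini-Hochberg adjustment. The script was tested on simulated data. Python 3.11.15, numpy 2.4.6, pandas 2.3.3, scipy 1.17.1 and matplotlib 3.10.9 were used.

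Named genes were those the rule used, 2 to 6 members of each list in order of the strength of the limma statistic, and the 12 higher and 12 lower genes with the smallest p and 1 direction in all captures. Not every list member picked in this way is given, so those shown need not be the strongest of their list. The genes named as called in the later captures (1 called gene is not reported here), Cald1, Mylk, Tpm2, Cnn1, Myh11, Des, Myocd, Srf, Fn1, Postn, Cthrc1, Col14a1, Pdgfra, Synpo2, Top2a, Mki67 and Acta1 were added after values were seen. Markers of other cell types are given as sums.

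Depth was estimated from the spacing of the lowest FPKM values, over 4558 genes with 1 transcript that was 2000 bases or longer, with an assumed fragment length of 300 bases, because the files hold no totals. Alternatives were the pseudocount, the filter on low values, the mean of logs, scaling without mitochondrial genes, the block, the variance trend, the limits of the rule and each capture left out. A filter of 100 FPKM, cells without markers of other types (a few defining markers, or whole lists), a depth minimum, 1 fit with the later captures and the alternatives for the share of Acta2-high cells were added after the data were seen.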

Additional observations from a re-analysis of the deposited data

How the results depend on the processing

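The captures are the replicates, both classes of a capture come from the same chip, and the capture was the replicate block of the day 12 comparison. Without the replicate block, 0 genes were higher and 0 lower, the Tagln difference was 2.07 and the median of the contractile list 1.06. With the mean over cells of log2(FPKM + 1) at day 12, 1 gene was higher, and the Tagln difference was 4.11, past the threshold. In the later captures that setting called 0 genes lower, against 4. The cause was not tested. Leaving out each day 12 capture in turn called 0 to 8 genes higher and 1 to 10 lower, with Tagln between 1.62 and 2.52 and the contractile median between 0.65 and 1.28. There were 8 higher and 10 lower genes without capture 1, 5 and 8 without capture 2, and 0 and 1 without capture 3, each from 2 captures. The difference between day 12 and later captures called 0 genes in all 5 fits without 1 capture. The share of Acta2-high cells among matrix cells, PWD12 minus later, was 32.4 percentage points, between 26.5 and 41.9 without 1 capture, and 30.6 and 41.8 with Acta2 limits of 200 and 50 FPKM. With the same alternatives at day 12, Tagln kept its direction in all of them, with 1.70 for Col1a1 from 3000 FPKM and 1.87 without the 4 Acta2-high and 5 Acta2-low cells that had 10 FPKM or more of a few defining markers of another type. The contractile median was 0.59 with a pseudocount of 10, 0.72 with a mean of at least 10 FPKM and 0.76 with the mean of logs. With all whole marker lists under 100 FPKM, 11 genes were higher and 11 lower, from captures 1 and 2 alone. No directions reversed among the named genes that were refitted. Leaving out a later capture left 1 for the later comparison, which then could not be fitted. The number of captures, and depth in genes found in few cells, limits these results.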
